A study of Labeotropheus fuelleborni and Maylandia zebra with 12 samples.

Results

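Taste bud-bearing oral epithelium was compared between Labeotropheus fuelleborni and Metriaclima zebra, both cichlid fishes of Lake Malawi that graze algae on rocks. The comparison rested on 6 of the 12 libraries of the series, 3 from L. fuelleborni (replicates 1, 2 and 4) and 3 from M. zebra (replicates 1, 2 and 3). These libraries were picked by their labels, but the comparison itself was chosen with earlier results of these data known. The other 6 libraries came from replacement teeth of both fishes. The tissue was a narrow ribbon of epithelium cut on the lip side of the outer tooth row of the lower jaw, as the labels' protocols state. Taste buds were not separated from the epithelium around them in that protocol. No fish of either group had been treated or genetically altered as far as the labels say, and they give no age, sex or number of fish per library. Whether each library came from a separate fish is not stated either, so p-values here reflect how far these particular libraries scatter, which may be partly technical. Species was the only labelled difference between the groups.

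Taste buds are clusters of sensory cells set in a stratified epithelium. The receptor cells use G protein signalling and calcium release to open cation channels, or sense ions directly, and pass the signal to nerve fibres, in part through serotonin. Around them lie keratinocytes, which are renewed from a basal layer and, as they move up, build desmosomes and a crosslinked envelope. Both cell populations are replaced throughout life.

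The count totals were small and uneven between the species. They were 220903, 248332 and 147480 in L. fuelleborni replicates 1, 2 and 4, against 72226, 85872 and 111155 in M. zebra replicates 1, 2 and 3, a ratio of means of 2.29 (exact permutation test, two-sided p = 0.1, the smallest that 3 against 3 libraries allow). At least 1 count was found for 10434 to 11113 features in the L. fuelleborni libraries and for 5979 to 8502 in the M. zebra libraries. Depth and species can therefore not be told apart. Some values set by few counts are given as counts and others as CPM. A low CPM value can rest on fewer than 10 counts, such as 2, 1 and 6 at rsl24d1 in M. zebra replicates 1, 2 and 3. CPM values relate each count to its library's total, scaled by the trimmed mean of M values (TMM). Of 26490 features in the table, 1383 had enough counts in these 6 libraries to be tested, 726 with a gene name and 657 with a locus number only. The kit kept strand, but how strand was handled in counting is not stated, so a count cannot be assigned with certainty to the named gene over one on the opposite strand. The same holds between near-identical copies, which are common among ribosomal protein genes.

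Relative to library size, taste bud epithelium of L. fuelleborni had far more counts at smc6 and moderately more at many ribosomal protein genes, and M. zebra had more at a mixed set in which tbl3 and vwc2 differed most among the named genes. In all, 78 of the 1383 genes tested (5.64%) passed an adjusted p of 0.05 in edgeR's quasi-likelihood test, 47 higher in L. fuelleborni (3.4% of those tested) and 31 higher in M. zebra (2.24%). An unadjusted p under 0.05 in that test was found for 336 of the 1383. A gene name was attached to 40 of the 78, of which 29 were higher in L. fuelleborni and 11 in M. zebra. Log2 fold changes (log2FC) are L. fuelleborni over M. zebra, with their standard errors (SE), and their median over all genes tested was 0.06. In all 78 called genes the 3 libraries of one species lay above the 3 of the other, as they did for 15.8% of the tested genes with L. fuelleborni above and 14.5% with M. zebra above. Since the calls were made from these same 6 libraries, that separation is not further evidence. The count moved by over 1.5 times without L. fuelleborni replicate 2 (28 genes), L. fuelleborni replicate 4 (146), M. zebra replicate 1 (22), M. zebra replicate 2 (35) or M. zebra replicate 3 (39). Of the calls, 27 higher in L. fuelleborni and 31 higher in M. zebra were not ribosomal protein genes, and a fit without those genes called 19 and 26. In dissected tissue, fewer cells of a type and less RNA per cell cannot be told apart, here and in what follows.

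**Figure D1:**
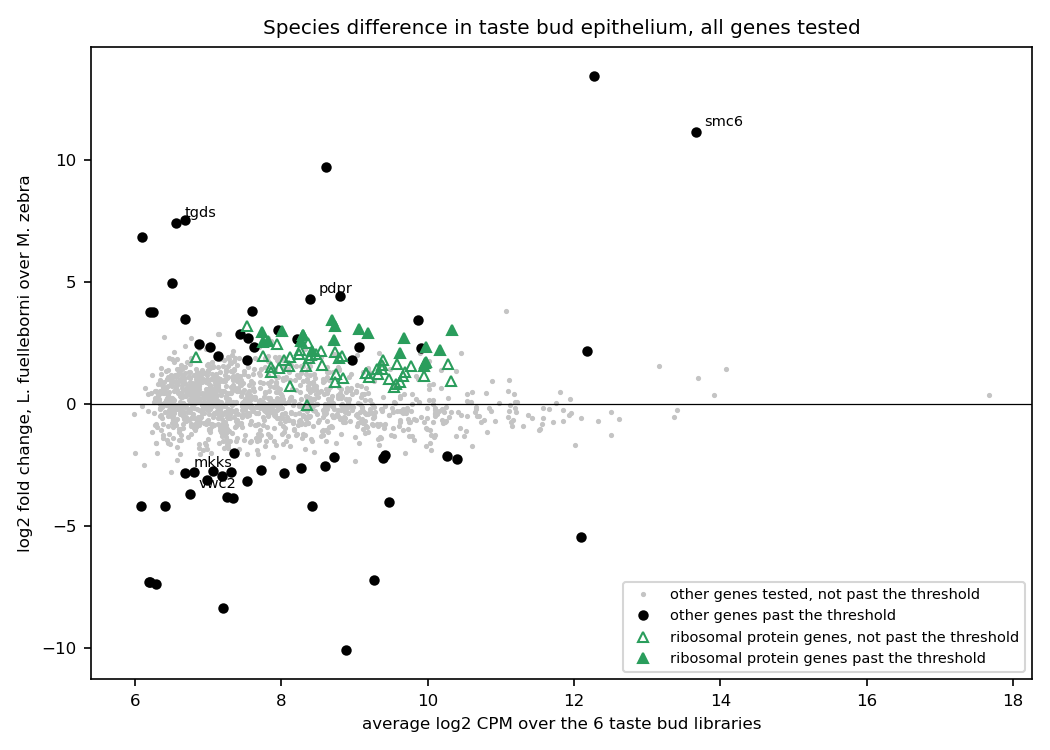
Log2 fold change of L. fuelleborni over M. zebra taste bud epithelium (vertical) against average log2 CPM over the 6 libraries (horizontal), for the 1383 genes tested. Black dots and filled green triangles mark the 78 genes past an adjusted p of 0.05, and small grey dots mark other genes that did not pass. Green triangles, filled or open, mark the 67 tested ribosomal protein genes, all but 1 of which lie above 0. The gene smc6 lies at 11.16 and LOC101484874 at 13.47.

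The widest difference of any gene with a name was in smc6, a subunit of the SMC5/6 complex that keeps DNA repair and chromosome segregation in order. Its counts were 3615, 4166 and 6191 in L. fuelleborni, against 2, 0 and 1 in M. zebra. As CPM these were 25909 ± 11672 and 11.2 ± 13.0 (SD, n = 3 each). The species were separated completely, with at most 2 counts in any M. zebra library. Whether reads of both fishes align equally well at this feature was not tested, here or at any other, so the ratio is one of counts assigned to it. With 3 counts in all of M. zebra, the ratio of summed counts was 2367, with a 95% counting interval of 809.7 to 11478 (log2FC 11.16, SE 0.87, adjusted p = 0.000109). In L. fuelleborni this 1 feature held 1.64%, 1.68% and 4.20% of all counts in replicates 1, 2 and 4, the highest share in replicate 4. Its call held in all 6 fits that left out a library.

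Other genes with few or no counts in M. zebra included tgds and pdpr. The dehydratase gene tgds, whose product is related to enzymes that act on nucleotide sugars, had 20, 45 and 22 counts in L. fuelleborni, against 0, 0 and 0 in M. zebra. Set against a floor of 3 counts over the 3 M. zebra libraries, it was at least 14.7-fold higher in L. fuelleborni (log2FC 7.42, SE 1.14, adjusted p = 0.0116, the fitted log2FC of a gene with no counts in one species being no bound). Its call held in all 6 fits that left out a library. The gene pdpr, for the regulatory subunit of pyruvate dehydrogenase phosphatase, was at 384, 520.0 and 889 CPM in L. fuelleborni, against 0, 34.5 and 47.8 in M. zebra. All L. fuelleborni libraries lay well above the highest M. zebra one, 18.9-fold in summed counts (log2FC 4.30, SE 0.75, adjusted p = 0.0126), and the call held in all 6 fits that left out a library. Of the immune cell list, 1 of 11 members in the table was tested, and cd74, the invariant chain of class II antigen presentation, was at 274, 116 and 693 CPM in L. fuelleborni, against 51.0, 45.9 and 63.8 in M. zebra. The L. fuelleborni libraries all lay above those of M. zebra, replicate 4 the highest. In edgeR's quasi-likelihood test cd74 did not pass (log2FC 2.71, SE 0.72, adjusted p = 0.0517), while DESeq2 called it and limma voom did not. The summed level of that list, most of it from cd74 itself, was 128 to 731 CPM in L. fuelleborni and 57.4 to 71.7 in M. zebra. The defining markers spi1, tyrobp, cd79a and cd79b were at 0 in all 6 libraries.

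**Figure D2:**
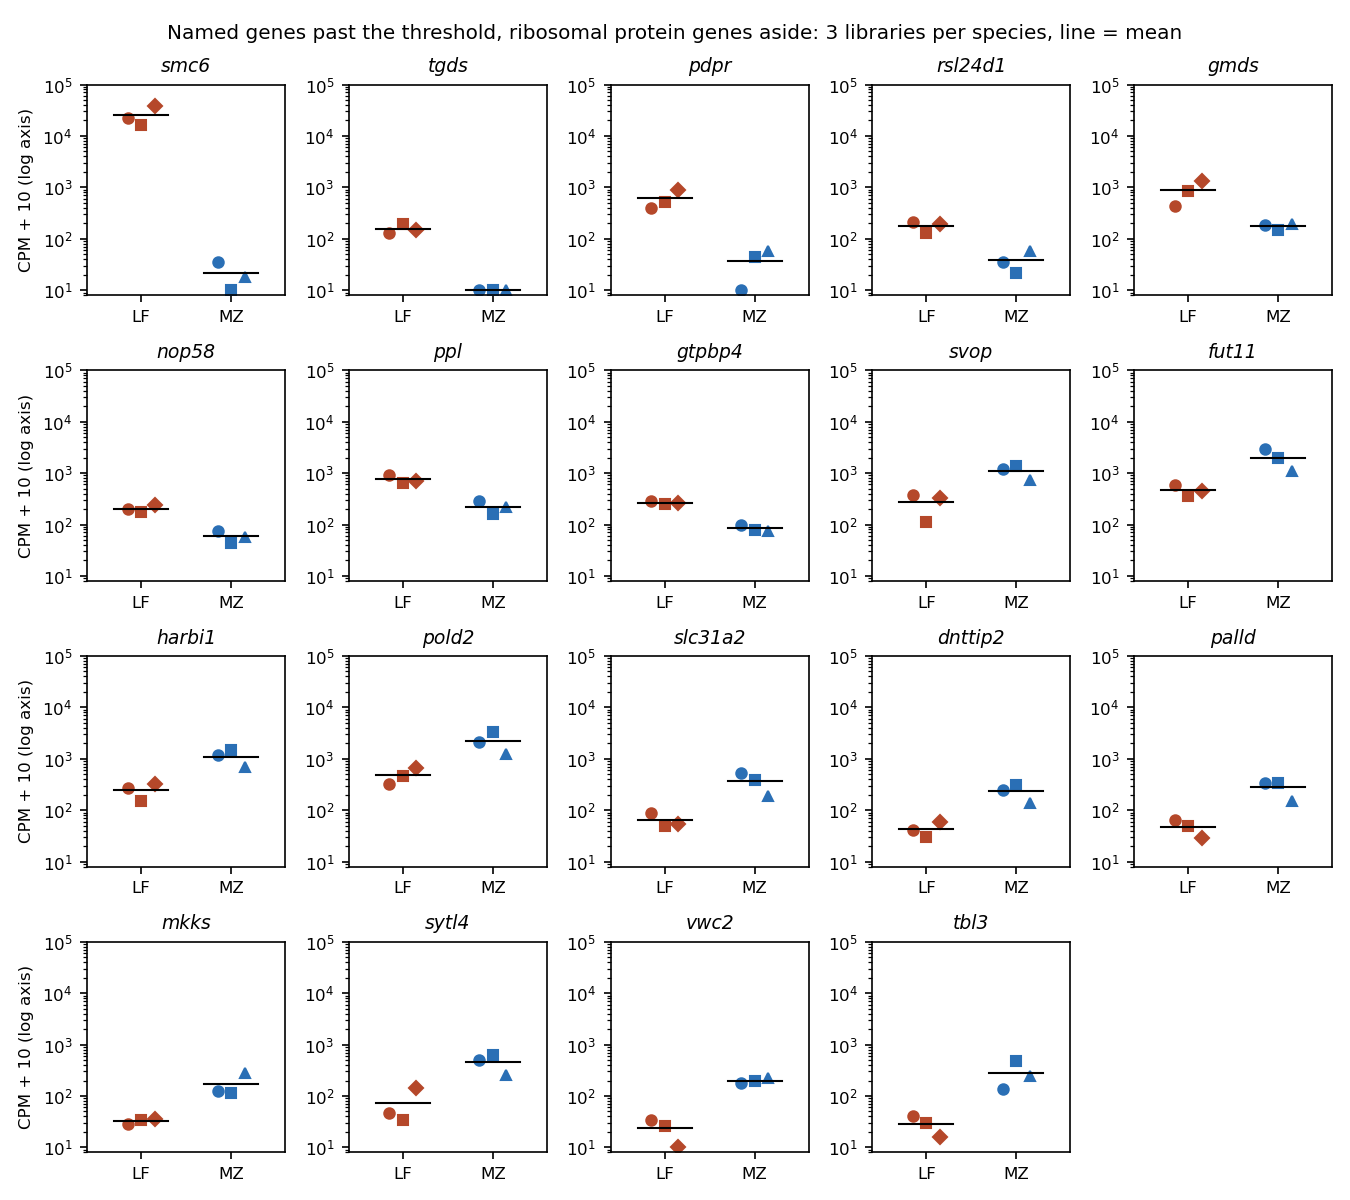
CPM + 10 on a log axis for 19 of the 20 named genes past the threshold that are not ribosomal protein genes, in the 3 L. fuelleborni (LF, left) and 3 M. zebra (MZ, right) taste bud libraries. Symbol shapes mark the replicate number (circle 1, square 2, triangle 3, diamond 4) and lines mark arithmetic means; in each panel the symbols of one species lie above all of the other.

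Genes of protein synthesis made up the largest named group. Ribosomal protein genes encode the protein part of the 2 subunits of the cytosolic ribosome, and 67 of 70 in the table were tested, rpl22, rpl3l and rps27l being too low. Of these, 20 were higher in L. fuelleborni, 11 of 38 of the large subunit and 9 of 29 of the small subunit, 0 were higher in M. zebra in edgeR's quasi-likelihood test (0 also at an unadjusted p of 0.05, and 0 by DESeq2 or limma voom), and 47 did not pass. That is 29.9% of the tested members, against 3.4% of all genes tested, these members included. The list was chosen with earlier results of these data known. Its members rose and fell together over the libraries, as given below, and are not independent observations. The estimate was above 0 for 66 of 67, rps9 being the exception, against 52.8% of all genes tested. Their median log2FC was 1.83, and 1.87 and 1.75 for the large and the small subunit. Under the other scalings tried, 66 of 67 also stayed above 0, with medians of 1.8 and 1.64.

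The share of all counts that fell in these 70 genes was 6.58%, 4.16% and 3.18% in L. fuelleborni replicates 1, 2 and 4, against 1.68%, 1.4% and 2.23% in M. zebra replicates 1, 2 and 3. The lowest L. fuelleborni library lay above the highest M. zebra one. The means were 4.64% ± 1.75 and 1.77% ± 0.42 (SD, n = 3 each; exact permutation test, two-sided p = 0.1, the smallest possible). Within L. fuelleborni, replicate 1 had the highest CPM for all 67 tested members, so the difference from M. zebra was uneven over the libraries.

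Among single members, rps28 of the small subunit was at 1207, 504 and 448 CPM in L. fuelleborni, against 25.5, 91.9 and 71.7 in M. zebra. It had the highest log2FC of the group, and summed counts gave a 10.6-fold difference (log2FC 3.47, SE 0.63, adjusted p = 0.0143). Another small subunit gene, rps3a, was at 3207, 2972 and 567 CPM in L. fuelleborni, against 331, 299 and 199 in M. zebra. Here replicates 1 and 2 of L. fuelleborni stood far above replicate 4, which was still above all of M. zebra (log2FC 3.03, SE 0.63, adjusted p = 0.026). Of the large subunit, rpl36 was at 1384, 744 and 624 CPM in L. fuelleborni, against 38.2, 103 and 167 in M. zebra (log2FC 3.10, SE 0.58, adjusted p = 0.018). L. fuelleborni replicate 1 was again at the top, and the species did not overlap. At the low end of the called members, rpl31 was at 1841, 1472 and 1034 CPM in L. fuelleborni, against 433, 448 and 598 in M. zebra. It was 2.86-fold higher in L. fuelleborni in summed counts, with no overlap (log2FC 1.55, SE 0.40, adjusted p = 0.0482). The exception, rps9, was at 573, 228 and 132 CPM in L. fuelleborni, against 548, 80.4 and 327 in M. zebra. The groups overlapped there, and the log2FC was -0.03 (SE 0.71, adjusted p = 0.981). The other called members included rpl6, rpl7, rpl7a, rpl12, rpl13, rpl23a, rpl28, rpl30, rpl34, rps12, rps18, rps21, rps23, rps25 and rps26, and over all 20 the log2FC ran from 1.55 to 3.47 and the adjusted p from 0.0143 to 0.0496. In 49 of the 67 tested members all L. fuelleborni libraries lay above all M. zebra libraries (15.8% of all genes tested), and in 18 they overlapped.

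How many of these genes passed depended on single libraries. It was 6 without L. fuelleborni replicate 1, 6 without L. fuelleborni replicate 2 and 41 without L. fuelleborni replicate 4. It was 0 without M. zebra replicate 1 in edgeR's quasi-likelihood test (41 at an unadjusted p of 0.05), 1 without M. zebra replicate 2 and 3 without M. zebra replicate 3. In each of these fits at least 64 ribosomal protein genes were estimated above 0, with medians between 1.17 and 2.12. With all libraries, DESeq2 called 38 and limma voom 3. The ribosomal share, library total and species moved together in these libraries, and depth and species cannot be told apart. After thinning all libraries to the lowest total, 15 to 27 ribosomal protein genes passed over 10 draws.

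**Figure D3:**
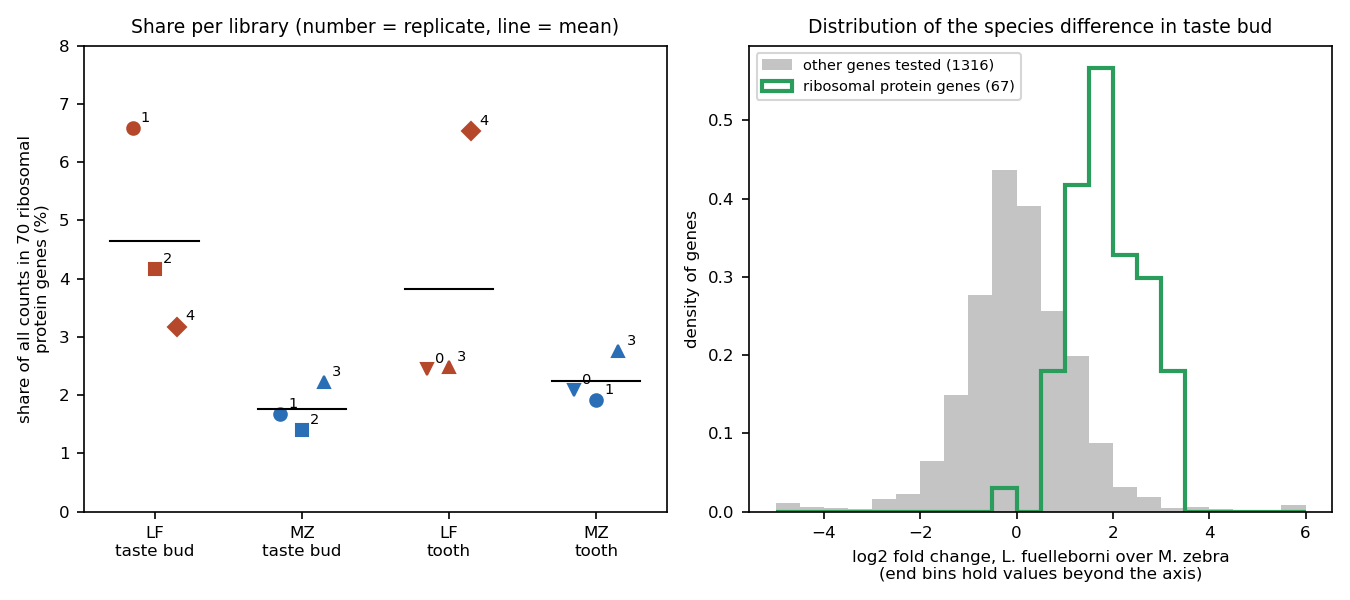
Left, the share of all counts in 70 ribosomal protein genes (%, axis from 0) in each library of L. fuelleborni (LF) and M. zebra (MZ), taste bud and tooth, with replicate numbers beside the points and lines at the means. Right, the distribution of taste bud log2 fold changes, L. fuelleborni over M. zebra, for the 67 tested ribosomal protein genes (green line, median 1.83) and the 1316 other genes tested (grey); values beyond the axis are drawn in its outermost bins.

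Of 49 translation factor genes in the table, 12 were tested and 0 passed in edgeR's quasi-likelihood test (2 at an unadjusted p of 0.05, 1 by DESeq2, 0 by limma voom). Their median log2FC was 0.81. The gene nearest the threshold was eef1b2, for a subunit of the exchange factor of elongation factor 1, at 780.3, 272 and 233 CPM in L. fuelleborni, against 51.0, 11.5 and 104 in M. zebra (log2FC 2.87, SE 0.76, adjusted p = 0.0517). The L. fuelleborni libraries lay above those of M. zebra, replicate 1 again the highest. Of 5 genes for nucleolar or pre-ribosomal proteins, 3 were higher in L. fuelleborni. This grouping was made after values were seen, from called genes alone, and so has no test of its own. Genes of this kind that did not pass were not counted, so the 5 give no share for the class. The 3 and gmds, described further on, were named after their values were seen. The 3 were nop58, of the box C/D particles that guide ribosomal RNA methylation, gtpbp4, a GTPase of large subunit assembly, and rsl24d1, a factor of large subunit maturation. The core particle gene nop58 was at 189, 168 and 227 CPM in L. fuelleborni, against 63.7, 34.5 and 47.8 in M. zebra (log2FC 1.99, SE 0.50, adjusted p = 0.0469). For gtpbp4 the values were 280.4, 240.0 and 252 CPM in L. fuelleborni, against 89.2, 68.9 and 63.8 in M. zebra (log2FC 1.80, SE 0.47, adjusted p = 0.0492). The libraries of gtpbp4 lay close together within each species. The rsl24d1 difference was wider, at 201, 120.0 and 183 CPM in L. fuelleborni and 25.5, 11.5 and 47.8 in M. zebra (log2FC 2.45, SE 0.62, adjusted p = 0.0469). The call of nop58 ended without L. fuelleborni replicates 1, 2 and 4 or M. zebra replicates 1, 2 and 3 (adjusted p 0.0625 to 0.156). That of rsl24d1 ended without L. fuelleborni replicates 1, 2 and 4 or M. zebra replicates 1, 2 and 3 (adjusted p 0.0567 to 0.185), and that of gtpbp4 ended without L. fuelleborni replicates 1 and 2 or M. zebra replicates 1, 2 and 3 (adjusted p 0.0898 to 0.174).

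The other 2 genes of that grouping were lower in L. fuelleborni. The gene tbl3, for a WD repeat protein of small subunit processing in the nucleolus, had 5, 5 and 1 counts in L. fuelleborni, against 10, 41 and 29 in M. zebra. It was the named gene with the lowest log2FC, 14.3-fold higher in M. zebra in summed counts relative to depth (log2FC -3.80, SE 0.69, adjusted p = 0.0143), and its call ended without L. fuelleborni replicate 2 (adjusted p = 0.0518). The nucleolar gene dnttip2 had 5, 5 and 8 counts in L. fuelleborni, against 19, 26 and 16 in M. zebra, with no overlap in CPM (log2FC -2.72, SE 0.58, adjusted p = 0.0275). That call ended without L. fuelleborni replicates 1 and 2 or M. zebra replicates 1 and 2 (adjusted p 0.0692 to 0.111).

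Lower in L. fuelleborni as well were genes with roles in secreted signalling, vesicle traffic and the cytoskeleton. The gene vwc2 encodes brorin, a secreted antagonist of BMP ligands described in mouse. It had 4, 4 and 0 counts in L. fuelleborni, against 13, 16 and 27 in M. zebra, 13.8-fold higher in M. zebra relative to depth (log2FC -3.70, SE 0.73, adjusted p = 0.0228). All M. zebra libraries had more counts than any L. fuelleborni library in spite of their smaller totals, and the call ended without L. fuelleborni replicate 2 or M. zebra replicates 1 and 3 (adjusted p 0.0701 to 0.0763). Granuphilin, a Rab27 effector that docks secretory granules, is encoded by sytl4. It was at 36.6, 24.0 and 132 CPM in L. fuelleborni, against 497, 620.2 and 247 in M. zebra (log2FC -2.84, SE 0.70, adjusted p = 0.0461). L. fuelleborni replicate 4 lay closest to the M. zebra libraries, and the call ended without L. fuelleborni replicates 1 and 2 or M. zebra replicates 1, 2 and 3 (adjusted p 0.0759 to 0.143). The gene svop, for a membrane protein of synaptic vesicles, was at 359.7, 104 and 315 CPM in L. fuelleborni, against 1185, 1389.7 and 717 in M. zebra (log2FC -2.08, SE 0.53, adjusted p = 0.0481). Its call ended without L. fuelleborni replicates 1 and 2 or M. zebra replicates 1, 2 and 3 (adjusted p 0.0569 to 0.156). Palladin, an actin-binding scaffold encoded by palld, was at 54.9, 40.0 and 18.9 CPM in L. fuelleborni, against 331, 333 and 143 in M. zebra (log2FC -2.78, SE 0.57, adjusted p = 0.026). Here replicate 3 was the lowest of the M. zebra libraries and still above all of L. fuelleborni, and the call ended without L. fuelleborni replicate 2 or M. zebra replicates 1 and 2 (adjusted p 0.0614 to 0.11).

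Among genes of transport and metabolism, slc31a2 and fut11 were lower in L. fuelleborni and gmds was higher. The gene slc31a2 belongs to the copper transporter family. It was at 79.3, 40.0 and 44.1 CPM in L. fuelleborni, against 523, 379 and 183 in M. zebra, 6.36-fold higher in M. zebra (log2FC -2.71, SE 0.58, adjusted p = 0.0277). It was the 1 call among 15 tested solute carrier genes of 201 in the table, close to the 5.64% called of all genes tested. The median log2FC of the 15 was -0.1. The slc31a2 call ended without L. fuelleborni replicate 2 or M. zebra replicates 1 and 2 (adjusted p 0.0515 to 0.11). The fucosyltransferase gene fut11 was at 585, 352 and 435 CPM in L. fuelleborni, against 2906, 1975 and 1076 in M. zebra (log2FC -2.12, SE 0.46, adjusted p = 0.0278). The highest M. zebra value was in replicate 1, and the call ended without L. fuelleborni replicate 2 or M. zebra replicates 1 and 2 (adjusted p 0.0535 to 0.127). The gene gmds encodes GDP-mannose dehydratase, which makes the precursor of GDP-fucose. It was at 421, 832 and 1330.0 CPM in L. fuelleborni, against 178, 138 and 183 in M. zebra (log2FC 2.36, SE 0.51, adjusted p = 0.0278). Replicate 4 of L. fuelleborni was the highest and replicate 1 the lowest of that species, the reverse of the ribosomal protein genes. The gmds call ended without L. fuelleborni replicate 2 or M. zebra replicates 1, 2 and 3 (adjusted p 0.0624 to 0.138).

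Of the last 3 named genes described, all lower in L. fuelleborni, pold2 encodes the accessory subunit of DNA polymerase delta. It was at 311, 448 and 649 CPM in L. fuelleborni, against 2141, 3262 and 1259 in M. zebra (log2FC -2.24, SE 0.47, adjusted p = 0.0275), with no overlap. Its call ended without L. fuelleborni replicates 1 and 2 or M. zebra replicates 1 and 2 (adjusted p 0.0698 to 0.0976). The single tested gene of the cell cycle list, of 20 in the table, was the thymidylate synthase gene tyms, at 48.8, 60.0 and 69.3 CPM in L. fuelleborni and 153, 126 and 135 in M. zebra, which did not pass (log2FC -1.21, SE 0.49, adjusted p = 0.167). The gene harbi1, which derives from a transposase, was at 262, 144 and 309 CPM in L. fuelleborni, against 1172, 1447 and 669 in M. zebra (log2FC -2.20, SE 0.48, adjusted p = 0.0278). Its call ended without L. fuelleborni replicates 1 and 2 or M. zebra replicates 1 and 2 (adjusted p 0.0551 to 0.108). The gene mkks, for a chaperonin-like protein of the basal body, had 3, 6 and 4 counts in L. fuelleborni, against 9, 9 and 34 in M. zebra (log2FC -2.83, SE 0.62, adjusted p = 0.0278). M. zebra replicate 3 held most of its counts, and the call ended without L. fuelleborni replicates 1 and 2 or M. zebra replicates 1 and 3 (adjusted p 0.074 to 0.123).

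Epithelial genes were compared between the species, which does not check the tissue label itself. Of 15 genes of suprabasal and cornifying keratinocytes in the table, 9 were tested and all 9 had estimates above 0, but 1 passed, against 3.4% of all genes tested. The median log2FC was 1.10, against 0.06 over all genes tested. With the ribosomal share as a covariate, 6 of the 9 estimates stayed above 0. Without L. fuelleborni replicate 1, M. zebra replicate 2 or M. zebra replicate 3 it was 8 of 9, and all 9 without any other single library. The one that passed was ppl, for periplakin, which links desmosomes and the cornified envelope to keratin filaments. It was at 927, 632 and 699.7 CPM in L. fuelleborni, against 280.4, 149 and 207 in M. zebra. All L. fuelleborni libraries lay above all M. zebra libraries, 3.51-fold in summed counts (log2FC 1.83, SE 0.44, adjusted p = 0.0411). The call of ppl ended without L. fuelleborni replicates 1 and 2 or M. zebra replicates 1, 2 and 3 (adjusted p 0.0767 to 0.132). Its plakin partner evpl was at 335, 416 and 422 CPM in L. fuelleborni, against 293, 184 and 135 in M. zebra, and did not pass (log2FC 0.95, SE 0.48, adjusted p = 0.25). The annexin gene anxa1, abundant in oral keratinocytes, was at 3018, 1056 and 668 CPM in L. fuelleborni, against 612, 149 and 629.6 in M. zebra (log2FC 1.76, SE 0.66, adjusted p = 0.144). For grhl1, a transcription factor of desmosome genes, the counts were 33, 33 and 15 in L. fuelleborni and 2, 0 and 6 in M. zebra (log2FC 2.40, SE 0.77, adjusted p = 0.0974). In anxa1, grhl1 and the desmosomal gene dsp the M. zebra replicate 2 library was the lowest of all 6, and it also had the fewest features with a count. The summed level of the list was 3492 to 7675 CPM in L. fuelleborni and 930.3 to 3543 CPM in M. zebra, so the species overlapped by a small margin.

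Basal keratinocytes and the progenitor pool were read from few genes. Of 9 basal genes, 4 were tested, dst, itgb4, lama3 and tp63, and 0 passed in edgeR's quasi-likelihood test (1 at an unadjusted p of 0.05, 0 by DESeq2 or limma voom), with a median log2FC of 0.79. The basal cell transcription factor gene tp63 was at 335, 148 and 208 CPM in L. fuelleborni, against 89.2, 68.9 and 128 in M. zebra (log2FC 1.24, SE 0.52, adjusted p = 0.173). Of 14 stem and progenitor genes, tp63 and id1 were tested and did not pass, and sox2, a transcription factor of taste progenitors, had 16 counts in L. fuelleborni and 3 in M. zebra. The mucous cell genes creb3l1 and xbp1 were tested of 6 and did not pass, and agr2 and spdef, which define such cells, were at 0 in all 6 libraries. Ionocyte genes, 7 in the table, were all too low to be tested, with 12 counts in L. fuelleborni and 5 in M. zebra in all. Their summed level was 12.6 to 28.0 CPM in L. fuelleborni and 0 to 45.9 in M. zebra.

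Among the listed taste receptor cell genes, only trpm5 and ddc had enough counts to be tested. Of 19 listed genes in the table, 9 had no count in any of the 6 libraries, among them calhm3, gad1, kcnk5, p2rx2, pkd2l1, pou2f3, snap25 and tph1. The cation channel gene of taste transduction, trpm5, was at 1018, 1180.0 and 1147 CPM in L. fuelleborni, against 2918, 2883 and 1562 in M. zebra. All L. fuelleborni libraries lay below all M. zebra libraries, 2.07-fold in summed counts in favour of M. zebra, but the difference did not pass (log2FC -1.14, SE 0.39, adjusted p = 0.109). In tooth the same feature was at 999, 912 and 502 CPM in L. fuelleborni (103, 109 and 147 counts). In M. zebra tooth it was at 625, 777 and 587 CPM (98, 151 and 125 counts). Its counts thus did not mark taste bud tissue alone. In CPM all taste bud libraries of both species lay above all tooth libraries, though each tissue was scaled on its own. The margin was small in L. fuelleborni, whose lowest taste bud value was 1018 and highest tooth value 999. The decarboxylase gene ddc, needed to make serotonin, had 5, 8 and 17 counts in L. fuelleborni, against 25, 6 and 19 in M. zebra. The species overlapped, and ddc did not pass (log2FC -1.67, SE 0.70, adjusted p = 0.175). The remaining detected members were too low to be tested. The calcium release channel gene itpr3 had 11 counts in L. fuelleborni and 1 in M. zebra. For prox1, a transcription factor found in taste cells, there were 19 counts in L. fuelleborni and 12 in M. zebra. Relative to depth prox1 was higher in M. zebra, at a mean of 42.9 CPM against 33.4 in L. fuelleborni, with overlap. The tryptophan hydroxylase gene tph2 had 7 counts in L. fuelleborni and 1 in M. zebra. At the phospholipase gene plcb2, the serotonin transporter gene slc6a4 and foxa2 there were 2 counts each in L. fuelleborni and 0 in M. zebra. The channel genes calhm1 and otop1 had 1 count each in L. fuelleborni and 0 in M. zebra. A difference in these was not detectable at this depth.

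**Figure D4:**
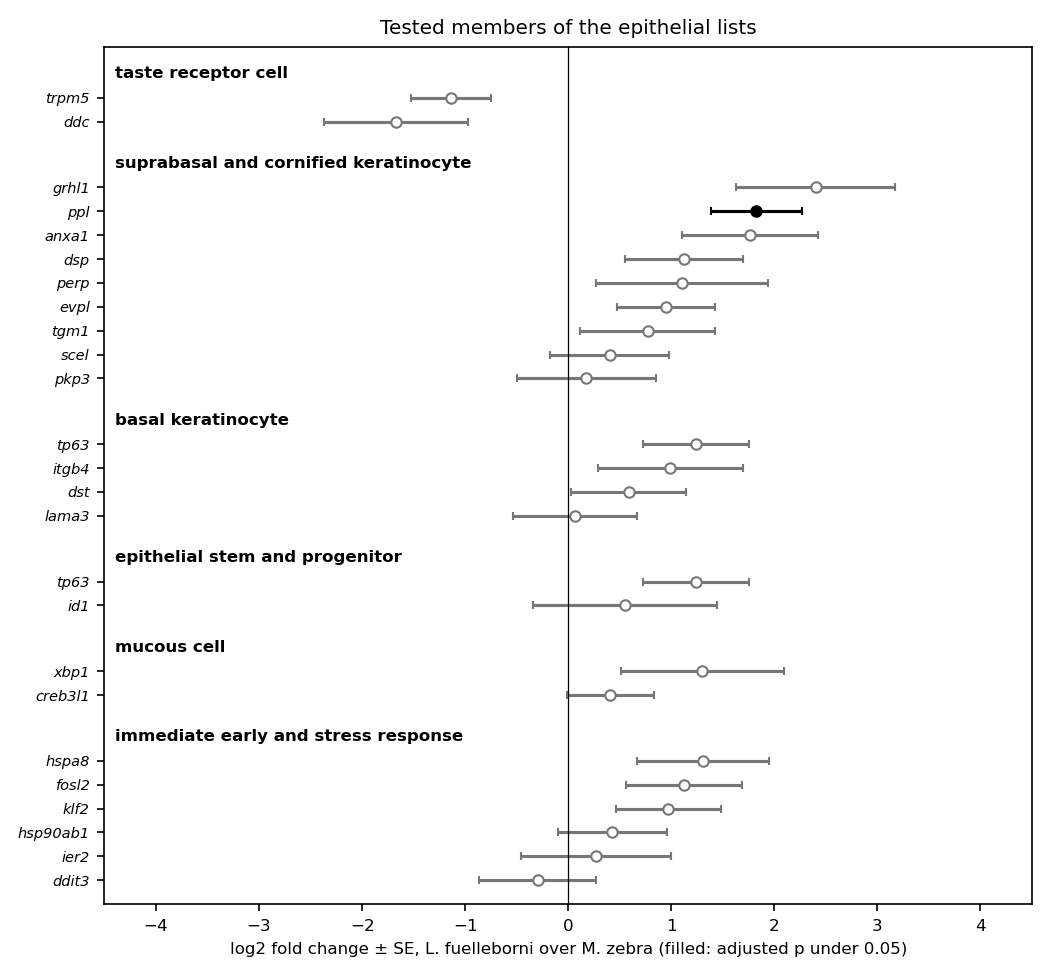
Log2 fold change of L. fuelleborni over M. zebra (horizontal, bars show ± SE) for the tested members of 6 gene lists, with 3 libraries per species. Only ppl, the filled point at 1.83, passed an adjusted p of 0.05; the 9 suprabasal keratinocyte genes lie above 0 and the taste cell genes trpm5 and ddc below.

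Signalling genes that act in taste bud and tooth renewal were mostly below the filter. Of 23 BMP pathway genes 2 were tested, and the ligand gene bmp6 was at 890.0, 1356 and 448 CPM in L. fuelleborni, against 1453, 1114 and 1674 in M. zebra, with overlap (log2FC -0.65, SE 0.45, adjusted p = 0.404). The other was the target gene id1, with a log2FC of 0.55 (SE 0.89, adjusted p = 0.766). Of 27 Wnt genes only the ligand gene rspo3 was tested, with a log2FC of -0.84 (SE 0.50, adjusted p = 0.335). Of 25 FGF and Notch genes only fgf2 was tested, with a log2FC of 0.14 (SE 0.51, adjusted p = 0.903). None of the 13 Hedgehog genes was tested, with 30 counts in L. fuelleborni and 11 in M. zebra in all, nor any of 45 semaphorin, ephrin and plexin guidance genes, with 107 and 41. Relative to depth the species overlapped. Hedgehog genes summed to 40.0 to 67.1 CPM in L. fuelleborni and 23.0 to 63.7 in M. zebra, and guidance genes to 152 to 233 and 89.2 to 191.

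Cell state genes showed no call. All 6 tested genes of the immediate early and stress list failed to pass, with a median log2FC of 0.70. Of these hspa8, a constitutive heat shock protein, was at 890.0, 416 and 309 CPM in L. fuelleborni, against 178, 68.9 and 390.5 in M. zebra (log2FC 1.31, SE 0.64, adjusted p = 0.241). Of the retinoid, detoxification and redox list, nfe2l2 and rbp7 were tested of 15 and did not pass. Of 54 mitochondrial respiration genes 3 were tested, with a median log2FC of -0.42. The complex I gene ndufa6 was lowest, at 195, 144 and 164 CPM in L. fuelleborni, against 242, 482 and 470.2 in M. zebra, and did not pass (log2FC -1.25, SE 0.48, adjusted p = 0.153). Proteasome subunits (2 tested of 41, median 0.19), splicing factors and hnRNPs (9 of 46, median 0.32), metalloproteases and inhibitors (1 of 36) and the antigen presentation and interferon list (1 of 12) had no call. Over the 20 lists with a tested member and no call, 55 genes were tested in edgeR's quasi-likelihood test. Of these, 10 had an unadjusted p under 0.05, against 336 of all 1383 genes tested. DESeq2 called 2 of the 55 and limma voom 0.

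Markers of tissue that a scalpel could have taken along were compared by their summed level. Tooth and bone mineral genes summed to 92 to 244 CPM in L. fuelleborni and 0 to 223 in M. zebra, with sp7, phex, alpl, phospho1 and panx3 at 0 in all 6 libraries and 0 of 13 tested. Fibroblast and dermal matrix genes summed to 124 to 542 CPM in L. fuelleborni and 184 to 1529 in M. zebra. Their 2 tested members of 16, col1a1 and col1a2, did not pass. Type I collagen col1a1 was at 61.0, 32.0 and 126 CPM in L. fuelleborni, against 548, 80.4 and 143 in M. zebra, with M. zebra replicate 1 far above the rest (log2FC -1.81, SE 0.76, adjusted p = 0.175). Skeletal muscle genes summed to 274 to 555 CPM in L. fuelleborni and 184 to 293 in M. zebra, and actn3 and ryr3, the 2 tested of 7, did not pass. The ranges were 44.1 to 280.4 CPM in L. fuelleborni and 11.5 to 140.2 in M. zebra for Schwann cell and nerve genes, of which erbb3 alone was tested of 12 and sox10 and s100b were at 0. For endothelium they were 32 to 119.8 CPM in L. fuelleborni and 0 to 31.9 in M. zebra, with 0 of 9 tested, and 38 of the 44 L. fuelleborni counts were at plvap. Pigment cell genes (0 of 17 tested) held 44 counts in L. fuelleborni and 21 in M. zebra, and erythrocyte genes (0 of 4 tested) 11 and 4. In summed CPM these were 54.9 to 88.25 and 12.7 to 137.8 for pigment cell genes, and 12.0 to 37.8 and 11.5 to 15.9 for erythrocyte genes.

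Features with a locus number and no name made up 38 of the 78 calls, a share near their 657 of all 1383 tested. Of the 38, 18 were higher in L. fuelleborni and 20 in M. zebra. LOC101484874 had 945, 1220 and 2993 counts in L. fuelleborni, against 0, 0 and 0 in M. zebra. It was at least 874-fold higher in L. fuelleborni against a floor of 3 counts over the M. zebra libraries (adjusted p = 0.000625 in edgeR's quasi-likelihood test). LOC101479124 had 103, 175 and 140 counts in L. fuelleborni, against 0, 0 and 0 in M. zebra. It was 70.8-fold higher against that floor, with an interval from 57.3-fold (adjusted p = 0.000625 in the same test). In the other direction, LOC101472537 had 0, 0 and 0 counts in L. fuelleborni, against 62, 119 and 85 in M. zebra. It was 174-fold lower with a floor of 3 counts in L. fuelleborni, with an interval from 141-fold (adjusted p = 0.000625). LOC106675964 had 0, 0 and 0 counts in L. fuelleborni, against 8, 15 and 69 in M. zebra, most of them in replicate 3. It was 60.3-fold lower with the same floor, with an interval from 48.1-fold (adjusted p = 0.0103). In all, 5 called features had 0 counts in M. zebra, tgds among them, and 5 had 0 counts in L. fuelleborni. The table does not pair these numbers with names.

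The feature with the most counts, LOC105941146, and 7 of the 8 named genes of highest mean CPM in either species, all but smc6, did not pass in edgeR's quasi-likelihood test. LOC105941146 alone held 26.4%, 24.4% and 11.9% of all counts in L. fuelleborni, against 17.1%, 20.1% and 21.5% in M. zebra. The species overlapped (exact permutation test, two-sided p = 0.9), and its log2FC was 0.38 (SE 0.55, adjusted p = 0.728). Among named genes, those of highest mean CPM in L. fuelleborni were smc6, fbxl6, fam35a, ergic3 and slc41a3, and in M. zebra fbxl6, fam35a, trmt2a, ugcg and fndc9. The F-box gene fbxl6 was at 15582, 23568 and 13061 CPM in L. fuelleborni, against 8755, 23418 and 8479 in M. zebra (log2FC 0.36, SE 0.52, adjusted p = 0.722). The shieldin gene fam35a, which acts in repair of DNA breaks, was at 6925, 9612 and 13282 CPM in L. fuelleborni, against 12846, 13690.0 and 8615 in M. zebra (log2FC -0.24, SE 0.43, adjusted p = 0.792). The species overlapped in both. For the others the log2FC was 0.23 (SE 0.39, adjusted p = 0.768) for ergic3, which encodes a protein of transport between the endoplasmic reticulum and the Golgi, and 0.04 (SE 0.49, adjusted p = 0.968) for the magnesium transporter family gene slc41a3. For the tRNA methyltransferase gene trmt2a it was -0.68 (SE 0.38, adjusted p = 0.309), for the glucosylceramide synthase gene ugcg -0.45 (SE 0.47, adjusted p = 0.605) and for fndc9 -0.71 (SE 0.38, adjusted p = 0.277).

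To see which of these differences were shared with the other oral tissue, the same species contrast was fitted in the 6 tooth libraries, which do not overlap with the taste bud ones. There 44 of 2552 genes tested (1.72%) passed, 25 higher in L. fuelleborni (0.98%) and 19 higher in M. zebra (0.745%). Of the 78 genes called in taste bud, 55 were also tested in tooth, 51 of them with the same sign there, and 18 passed in tooth in the same direction. Ribosomal protein genes were 19 of the 55, all 19 with the same sign. How often signs matched over all genes tested in both tissues was not counted. Only 20 of the 44 tooth calls were tested in taste bud, and the rest could not be called there. The 18 shared genes were 23.1% of all taste bud calls and 40.9% of all tooth calls, untested ones included. Of the 18, 8 had a name and 10 had none, and 0 called genes passed in opposite directions. Among the 8 named ones were smc6, tgds, pdpr, rps28 and rpl28, higher in L. fuelleborni, and svop and mkks, lower there.

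For smc6 the tooth counts were 2259, 1421 and 2908 in L. fuelleborni, against 11, 5 and 22 in M. zebra, a tooth log2FC of 7.76 (SE 0.73, adjusted p = 2.01e-09). Its taste bud difference was not shown to exceed that in tooth, with an interaction log2FC, taste bud minus tooth, of 3.45 (SE 1.02, adjusted p = 0.288). For mkks the tooth counts were 5, 2 and 5 in L. fuelleborni, against 508, 201 and 309 in M. zebra, a tooth log2FC of -6.21 (SE 0.68, adjusted p = 3.63e-08). M. zebra tooth held many more counts of mkks than M. zebra taste bud, L. fuelleborni had few in both tissues, and the interaction log2FC was 3.35 (SE 0.92, adjusted p = 0.256). For pdpr the tooth log2FC was 4.37 (SE 0.61, adjusted p = 4.74e-06), next to 4.30 in taste bud. Of the ribosomal protein genes, 65 were tested in tooth with a median log2FC of 1.22, against 0.05 over all genes tested there, and 2 passed, rps28 and rpl28. Their share of counts in tooth was 3.82% ± 2.35 in L. fuelleborni and 2.25% ± 0.448 in M. zebra (SD, n = 3 each; exact permutation test, two-sided p = 0.3), and L. fuelleborni replicate 4 alone reached 6.54%.

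The 4 taste bud calls of opposite sign in tooth were pold2, sytl4 and 2 features without a name. In tooth pold2 had a log2FC of 0.90 (SE 0.56, adjusted p = 0.688) and sytl4 one of 0.39 (SE 0.50, adjusted p = 0.923). The difference between the tissues was tested over all 12 libraries as an interaction, and 0 of 2962 genes (0%) passed in edgeR's quasi-likelihood test, with 229 at an unadjusted p of 0.05. The lowest adjusted p was 0.187, shared by 9 features, of which pold2, sytl4, srp54 and tns4 have a name. The interaction log2FC was -3.14 (SE 0.76, adjusted p = 0.187) for pold2 and -3.25 (SE 0.83, adjusted p = 0.187) for sytl4, which alone of the 4 were called in taste bud. Without L. fuelleborni taste bud replicate 4, 4 genes passed, among them pold2 (adjusted p = 0.0469) and sytl4 (adjusted p = 0.0148), and without L. fuelleborni taste bud replicate 1, 1 feature without a name passed. With all libraries in the fit, no species difference was shown to be particular to taste bud epithelium.

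**Figure D5:**
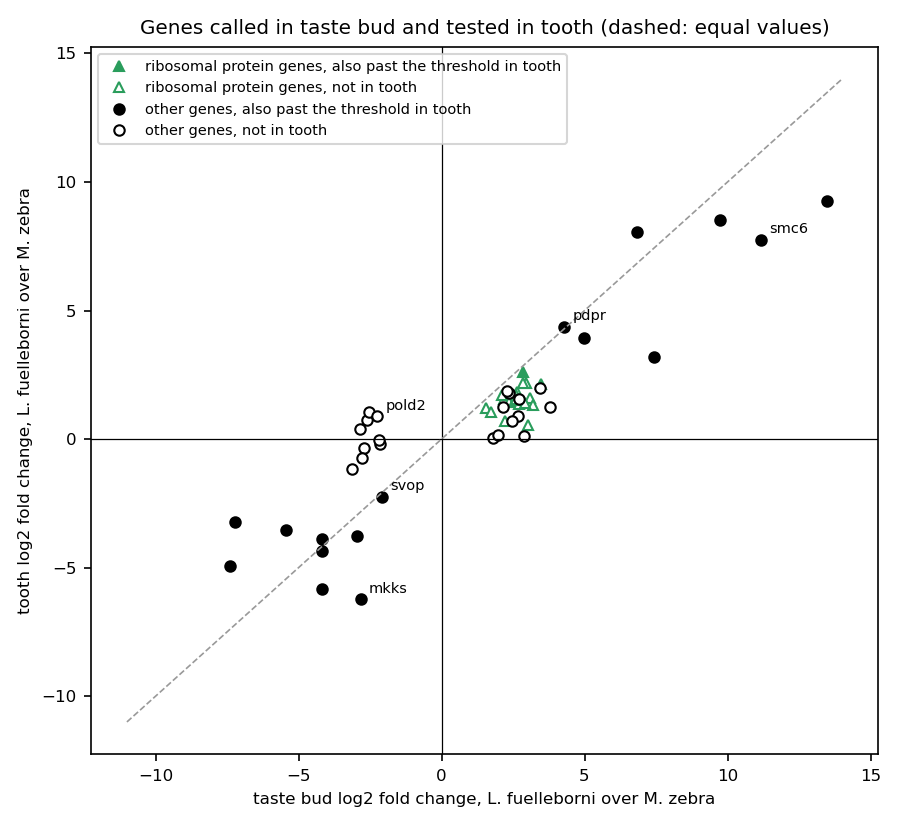
Tooth log2 fold change (vertical) against taste bud log2 fold change (horizontal), both L. fuelleborni over M. zebra, for the 55 genes called in taste bud and tested in tooth. Filled symbols mark the 18 also past the threshold in tooth, triangles mark ribosomal protein genes and the dashed line marks equal values; 51 points lie in the quadrants of equal sign, and pold2 is among the 4 that do not.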

How the data were processed

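RNA of taste bud epithelium from L. fuelleborni and M. zebra was read as 3 libraries per species, prepared with a TruSeq stranded mRNA kit and sequenced on a HiSeq instrument, per the labels' protocols. The authors deposited raw read counts per gene feature without normalization, in 1 column per library. Tools listed in the submitters' processing notes, without their roles, are HTSeq 0.6.1, TopHat2 2.0.9, limma 3.20.9, SAMtools 0.19 and edgeR 3.6.8. For the build, the annotation and the handling of strand, the sources used here give nothing. Of the 26490 features, 15870 have a locus number but no name. Totals were 72226 to 248332 counts, and 1 count was worth 4 to 12.7 CPM after TMM scaling. Replicate pairs differed beyond sampling noise (chi-square per degree of freedom 4.9 to 17.6), so none was treated as a repeat.

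The 6 libraries were filtered, scaled and tested on their own in R 4.3.3 with edgeR 4.0.16: filterByExpr with a minimum count of 10 (77.3 CPM here) in 3 libraries, TMM factors, and the robust quasi-likelihood test with 1 mean per species and no replicate block. Two-sided p-values were adjusted by the Benjamini-Hochberg method over the 1383 genes tested, with a threshold of 0.05. SE is the log2FC divided by the square root of F. The same fit was made in tooth and, for the interaction, over all 12 libraries. Counting intervals are exact at 95% and cover counting error only. Floors are 3 counts over a species with none, and a fold set against a floor is not a lower bound. The scripts were tested on simulated counts.

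Named were the 15 genes of largest absolute log2FC in each direction among those called, an average log2 CPM no lower than 6 and no overlap between species, called members of gene lists, detected taste receptor cell genes, the 5 named genes of highest mean CPM in each species, and the leading features without a name. Values of other list members illustrate their list, and nop58, gtpbp4, rsl24d1 and gmds were added after their values were seen. The comparison and the gene lists were chosen with earlier results of these data known. Alternatives were other scalings, filters and fits, limma 3.58.1 (voom), DESeq2 1.42.0, a replicate block, thinning all libraries to 72226 counts, a ribosomal share covariate, and leaving out each library. Leaving out ribosomal protein genes, smc6 or the libraries of highest ribosomal share was chosen after seeing the data. A few genes that the rule or the lists hold are counted in the totals but not reported here by name.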

Additional observations from a re-analysis of the deposited data

How the results depend on the processing

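The count of called genes (78, of which 47 higher in L. fuelleborni and 31 higher in M. zebra) moved by over 1.5 times in at least 1 direction under several alternatives. It was 138 (90 and 48) with DESeq2, 30 (10 and 20) with limma voom, 215 (117 and 98) without the filter and 119 (58 and 61) with 12 libraries in one fit. In the first draw of thinning to 72226 counts it was 51 (32 and 19), the low end of 51 to 79 over 10 draws, so not every draw moved it that far. It was 24 (18 and 6) when ribosomal share entered the fit as a covariate. It was 45 (19 and 26) without ribosomal protein genes, also with the most abundant feature and smc6 removed, and 64 (44 and 20) with L. fuelleborni replicates 1 and 2, which have the highest ribosomal share, left out; that fit has 1 L. fuelleborni library, assumed to vary like those of M. zebra. Leaving out 1 library at a time gave 22 to 146 genes, 8 to 92 higher in L. fuelleborni and 10 to 54 higher in M. zebra. The cause of these moves was not tested. All 78 kept their sign in each of the 20 alternatives in which they were tested, 13 stayed called in every leave-one-out fit, and 7, smc6 and 6 features without a name, in every alternative.

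The 20 called ribosomal protein genes became 38 with DESeq2, 3 with limma voom, and 0 to 41 when 1 library was left out. Their count was 1 in the fit without L. fuelleborni replicates 1 and 2, a fall that choosing those libraries by ribosomal share favours. With the ribosomal share as a covariate, which is built from these genes, 0 passed in edgeR's quasi-likelihood test (3 at an unadjusted p of 0.05), their median log2FC was 0.22, and 39 of 67 were above 0. Upper-quartile scaling lowered the median of all genes by 0.11 on the log2 scale, called 82 genes and left 19 ribosomal protein genes called. That scaling moved the split to 44 and 38. The interaction count of 0 became 1 without the filter and 0 to 4 when 1 library was left out. Among named genes tgds lost its call only in that fit with 1 L. fuelleborni library (log2FC 6.96, SE 2.46, adjusted p = 0.161), and pdpr only with limma voom.

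Replicate numbers 1 and 2 are shared by the species, and deviations of same-numbered libraries correlated at 0.16 and 0.216, within the -0.371 to 0.299 of the other pairs, so the numbers do not establish pairs. With a replicate block, 304 genes passed in edgeR's quasi-likelihood test (186 and 118), 59 of them ribosomal protein genes. In that fit trpm5 (log2FC -1.40, adjusted p = 0.0244) and ddc (-2.31, adjusted p = 0.0439) passed too. There L. fuelleborni replicate 4 and M. zebra replicate 3 each stood alone in a block and did not inform the species difference. That difference thus rested on replicates 1 and 2 of each species, matched by numbers that do not establish pairs.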
